A study of Mus musculus with 12 samples.

Results

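The comparison was between 2 populations of conventional dendritic cells (cDC) sorted from the lungs of mice 16 h after lipopolysaccharide and ovalbumin had been given into the airways, the CD103+ cDC and the CD11bhi CD14lo cDC (CD14lo cDC). It was defined by the sort labels and rests on 6 arrays of the 12 in the series, 3 for each population, and on 10929 genes tested. All mice were male C57BL/6 of 8 to 12 weeks and received 100 ng of lipopolysaccharide, a bacterial cell wall component, with 100 ug of ovalbumin, a foreign protein, in 50 ul, so each statement below is about stimulated lungs and no untreated mice enter it. Each array stood for a pool of 20 mice, labelled a biological replicate, with a sort purity above 93% by the labels. The remaining 6 arrays, of CD14hi and Ly6Chi monocyte-derived dendritic cells (moDC), entered the filter on low signals, which spans all 12 arrays, and the fit, where they served to estimate the spread between replicates.

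Conventional dendritic cells take up antigen in the lung, carry it to draining lymph nodes and present it to T cells. The CD103+ population corresponds to the type 1 lineage, known for uptake of dying cells and cross-presentation to CD8 T cells, and the CD11b+ population to the type 2 lineage, known for priming CD4 T cells. Their surface markers and lineage factors are well described. The measurements below concern the machinery behind those markers: receptors and kinases, transcription factors, metabolic enzymes, and the proteins that move vesicles and shape the cytoskeleton.

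Signals are MAS5 intensities in arbitrary units, listed in the order of replicates 1, 2 and 3. A log2 difference is CD103+ cDC minus CD14lo cDC on signals raised by a pseudocount of 50.0003, given ± SE from the limma model with 3 arrays in each population, and a fold is taken from it, so the folds of dim genes are understated. Adjusted p-values are Benjamini-Hochberg values over all genes tested, and a gene was called at an adjusted p under 0.05. A gene was tested if a probe set exceeded the array median on at least 3 of 12 arrays. Some genes, such as Dkk3, Clnk, Plce1, Gnao1 and Gng4, passed this filter through the CD103+ arrays alone. Their p-values are no separate support for the difference. Signals of different genes are not compared, since probe sets differ in brightness. In these bulk samples, fewer cells expressing a gene and less RNA per cell cannot be told apart.

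CD103+ cDC held more message for the Wnt antagonist relative Dkk3, the G protein subunits Gnb4 and Gng4, the semaphorin Sema4f and the fatty acid receptor Cd36, while CD14lo cDC held more for the adhesion-type receptor Adgre4, the cyclooxygenase Ptgs2, the transcription factor Cebpb and the actin-capping protein Capg. Of the genes tested, 1466 were higher in CD103+ cDC (13.4%) and 1675 were lower (15.3%). Of these, 546 (5.0% of the genes tested) and 635 (5.81%) differed by at least 2-fold. With each array centred at its median, which moved the median log2 difference of all genes from -0.03 to 0.06, it was the higher calls that prevailed, with 1831 against 1342. Among 2099 tested genes of the 41 lists on signalling, transcription, metabolism and trafficking, 353 were higher and 409 lower, 36.3% against 28.7% of all genes tested. These lists hold subset markers such as Csf1r, Klf4 and Rab7b and were chosen with earlier results of these data known. The shares called in them are therefore no test of the themes. The share called was 43.9% in the signalling lists, 36.2% in transcription, 35.0% in metabolism and 30.0% in trafficking. Some lists lay below the share over all genes. Among them were the Wnt (25.7%), phosphoinositide 3-kinase (27.1%), BTB zinc finger (23.4%), nucleotide (24.1%), endocytic (26.2%) and sorting nexin (24.5%) lists.

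**Figure D1:**
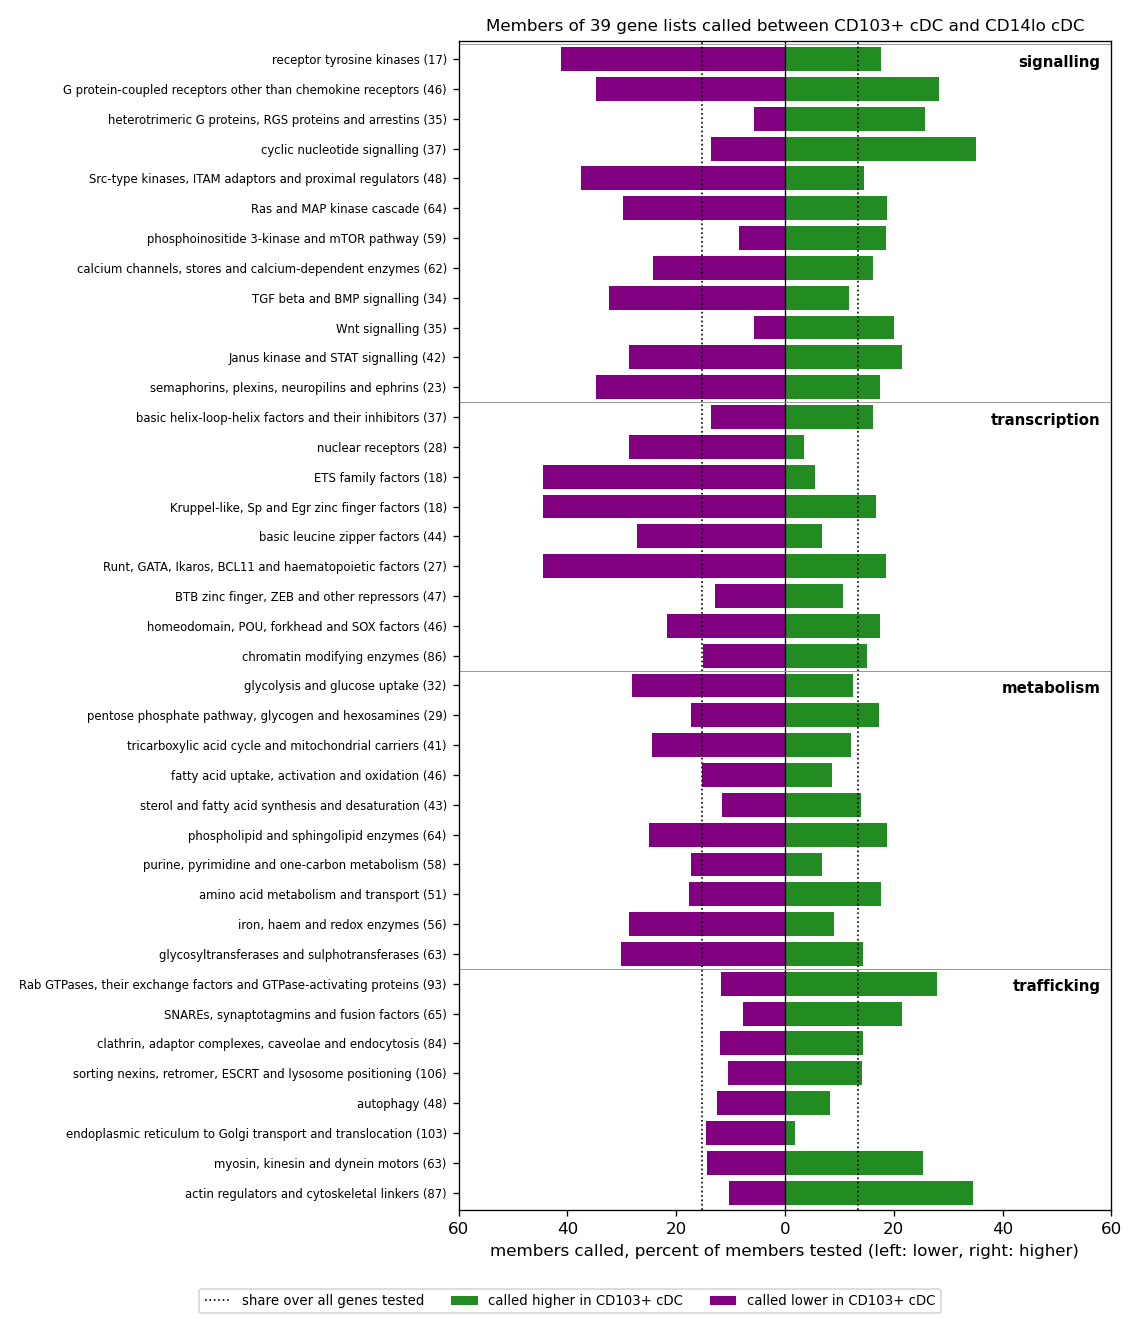
Percent of tested members called higher (green, right) or lower (purple, left) in CD103+ cDC than in CD14lo cDC, for 39 of the 41 gene lists in 4 themes, with the number tested in parentheses and dotted lines at the shares over all genes tested (13.4% higher, 15.3% lower). The actin list had 30 of 87 members higher and the glycosyltransferase list 19 of 63 lower; with median centring the balance turns in the Ras, Janus kinase, homeodomain, tricarboxylic acid cycle and endoplasmic reticulum lists.

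The arrays matched their sort labels. Itgae, which encodes CD103, had signals of 15467, 12449 and 17619.6 in CD103+ cDC and 1126, 974 and 466 in CD14lo cDC, and Xcr1, a chemokine receptor of the type 1 lineage, 2244, 3514 and 2208 in CD103+ cDC and 140.4, 83.4 and 60.5 in CD14lo cDC. Sirpa and Clec10a, markers of the CD11b+ lineage, had 153 to 330 and 63.5 to 239.8 in CD103+ cDC against 6615 to 7752 and 4560 to 6426 in CD14lo cDC. Itgam, the gene of CD11b, had 72.1, 48.9 and 31.2 in CD103+ cDC and 859, 1231 and 1254 in CD14lo cDC. Cd14 itself overlapped between the populations, at 875, 596 and 1432 in CD103+ cDC and 1714, 1257 and 1639 in CD14lo cDC, and its call (log2 difference -0.71 ± 0.23, adjusted p = 0.027) was lost in 9 of the 18 refits tried. Across genes, arrays correlated at 0.973 to 0.974 within CD103+ cDC, 0.973 to 0.981 within CD14lo cDC and 0.892 to 0.912 between them.

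Some technical measures and markers of other cells moved with the comparison. The Gapdh 3' to 5' ratio, a measure of RNA quality, was 3.26, 1.68 and 3.27 in CD103+ cDC and 1.55, 2.29 and 1.72 in CD14lo cDC, and a bioB control probe set read 4285 to 6449 against 2036 to 2827. Of 11 monocyte and macrophage markers tested 9 were lower in CD103+ cDC and 0 higher, with summed signals of 13176 to 20589.8 against 33691 to 41729; none was at 0. Of 10 lung epithelium markers 6 were higher and 1 lower, with sums of 7438 to 12523 against 4652 to 7855, led by Scgb1a1 at 3104 to 6824 against 1280 to 3759. Of 6 natural killer cell markers 3 were lower and 0 higher (sums of 6110 to 7826 against 11134 to 13842), while Eomes, Gzmb, Ncr1 and Nkg7 lay below the array median on all 6 arrays. Alveolar macrophage markers had 2 of 10 higher and 2 lower and plasmacytoid dendritic cell markers 3 of 8 higher and 1 lower. Neutrophil (1 of 5), T cell (1 of 2), B cell (1 of 4) and fibroblast or endothelium markers (2 of 8) had only lower calls. These were 20%, 50%, 25% and 25% of those tested, against 28.7% of all genes. Below the array median on all 6 arrays lay 5 of 8 neutrophil, 4 of 8 T cell, 3 of 7 B cell and 2 of 10 fibroblast or endothelium markers. The part of these measures and cells in the results below was not tested.

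CD103+ cDC held more message for the receptor tyrosine kinases Flt3, Kit and Met, and CD14lo cDC for Kdr, Igf1r and Insr. Flt3, the receptor for the growth factor on which cDC depend, had signals of 6673, 5899 and 7676 in CD103+ cDC and 2262, 2752 and 2525 in CD14lo cDC and was 2.65-fold higher (log2 difference of 1.40 ± 0.17, adjusted p = 4.3e-06). The stem cell factor receptor Kit was 2.44-fold higher and the hepatocyte growth factor receptor Met 2.200-fold higher. The vascular endothelial growth factor receptor Kdr, also listed as an endothelial marker, had signals of 110.5, 200.2 and 93.96 in CD103+ cDC and 838, 418 and 810.0 in CD14lo cDC and was 3.95-fold lower (log2 difference of -1.98 ± 0.32, adjusted p = 0.00012). The insulin-like growth factor receptor Igf1r (2.82-fold lower) and the insulin receptor Insr (2.43-fold lower) moved the same way as Kdr. In total 3 of 17 tested receptor tyrosine kinases rose and 7 fell, the subset markers Ddr1 and Csf1r counted among them.

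G protein-coupled receptors changed in both directions, with 13 of 46 higher and 16 lower. P2ry14, a receptor for UDP-glucose released by stressed cells, had signals of 1002, 854 and 1094 in CD103+ cDC and 210.3, 187 and 78.3 in CD14lo cDC and was 5.16-fold higher (log2 difference of 2.37 ± 0.24, adjusted p = 6.4e-07). Ffar4, a receptor for long-chain fatty acids, was 3.63-fold higher, with 1759.9, 1788 and 2289 in CD103+ cDC and 589, 660.3 and 307 in CD14lo cDC. A pair of named prostaglandin receptors parted. Ptger2, a receptor for prostaglandin E2, had 307, 375 and 296 in CD103+ cDC and 71.4, 35.9 and 58.3 in CD14lo cDC and was 3.59-fold higher (log2 difference of 1.85 ± 0.20, adjusted p = 1.4e-06). Ptgir, the prostacyclin receptor, had 52.1, 52.1 and 10.3 in CD103+ cDC and 609, 809 and 706 in CD14lo cDC and was 8.800-fold lower (log2 difference of -3.14 ± 0.21, adjusted p = 2.1e-09). The gene of the enzyme upstream of these ligands, Ptgs2, was 15.9-fold lower in CD103+ cDC, with 202, 84.3 and 63.7 in CD103+ cDC and 2577, 1718 and 3304 in CD14lo cDC. The largest fall among the tested G protein-coupled receptors was in Adgre4, an adhesion-type receptor of the F4/80 family, with 71.6, 128 and 17.1 in CD103+ cDC and 1527, 2527 and 2149.7 in CD14lo cDC (18.3-fold lower, log2 difference of -4.20 ± 0.28, adjusted p = 1.9e-09). S1pr3, a receptor for sphingosine 1-phosphate, was 4.02-fold lower.

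Among genes of the proteins that relay these receptors, more were called higher than lower in CD103+ cDC. Of 35 heterotrimeric G protein, RGS and arrestin genes 9 rose and 2 fell. This was 31.4% called, near the 28.7% of all genes tested (13.4% higher, 15.3% lower). The beta subunit Gnb4 had 5963, 6938 and 6268 in CD103+ cDC and 1038, 1221 and 923 in CD14lo cDC, 5.82-fold higher (log2 difference of 2.54 ± 0.17, adjusted p = 2e-09), and every CD103+ array exceeded every CD14lo array by more than the range within either population. The gamma subunit Gng4, which is not in the list counted, had 1479, 813 and 1749 in CD103+ cDC and 48.1, 84.7 and 79.2 in CD14lo cDC (11.2-fold higher). The alpha subunits Gnao1 (4.38-fold) and Gna15 (2.299-fold) were higher too. Gng4 and Gnao1 lay below the array median on all 3 CD14lo arrays. The 2 list members that fell were Grk6, a kinase that desensitizes receptors (1.69-fold), and Rgs18, which speeds the turn-off of G proteins (1.73-fold). The log2 difference of Rgs18 ran from -0.95 to -0.59 over the refits. Of 37 cyclic nucleotide genes 13 rose and 5 fell, 48.6% called. Adcy6, an adenylyl cyclase that makes cyclic AMP, had 11033, 6795 and 6721 in CD103+ cDC and 2970.3, 1899 and 1893 in CD14lo cDC and was 3.56-fold higher (log2 difference of 1.83 ± 0.21, adjusted p = 2.6e-06). Among the phosphodiesterases that break cyclic nucleotides down, Pde8b (4.598-fold) and Pde8a (2.504-fold) were higher, while Pde2a was lower, with 158, 86.5 and 111 in CD103+ cDC and 658, 928 and 682 in CD14lo cDC (4.81-fold lower, log2 difference of -2.27 ± 0.20, adjusted p = 6.3e-08).

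**Figure D2:**
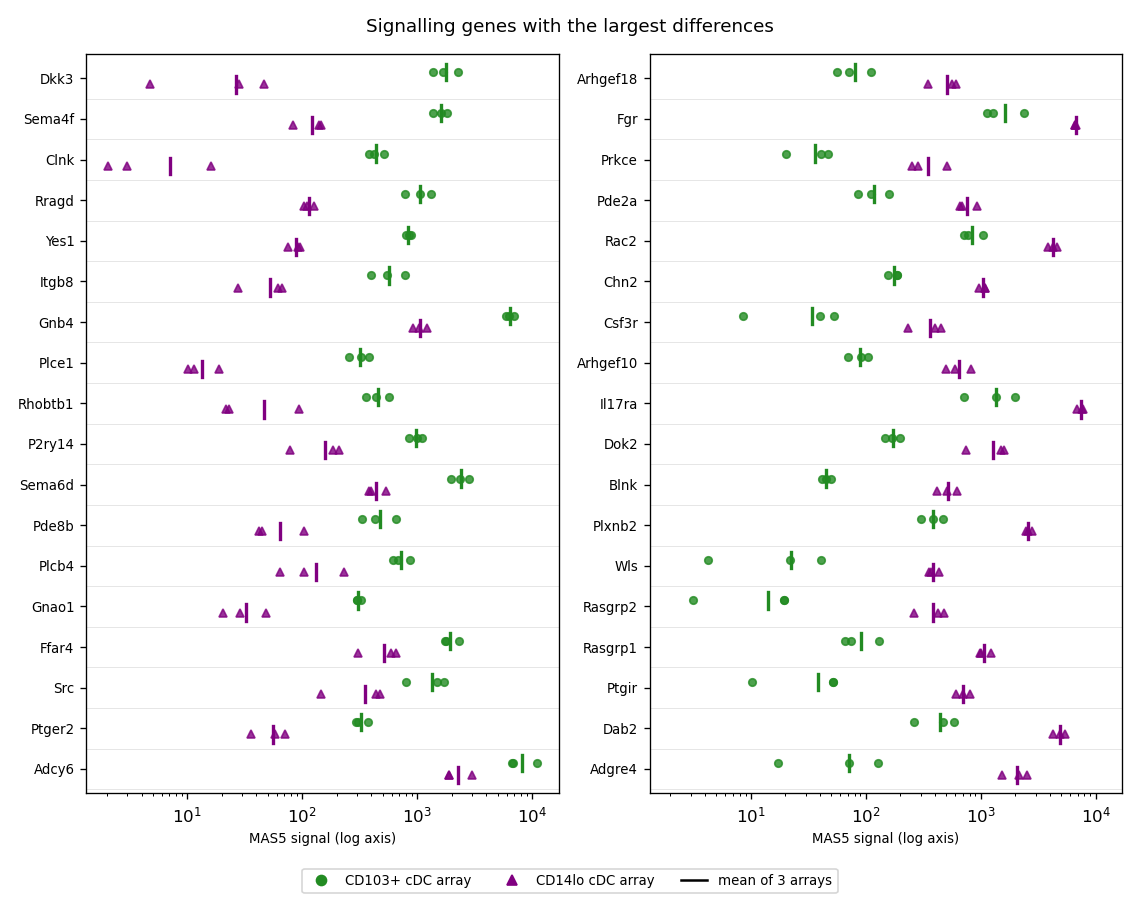
MAS5 signal (log axis) on each CD103+ cDC array (green circles) and CD14lo cDC array (purple triangles) for the 18 list-named signalling genes of largest rise (left) and of largest fall (right) in CD103+ cDC, with a bar at the mean of 3 arrays. In every gene shown the populations' arrays do not overlap, which the rule for naming them required.

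Adaptors and kinases next to immune receptors were lower more often than higher, with 7 of 48 up and 18 down. A pair of related adaptors went opposite ways: Clnk had 381, 510.5 and 418 in CD103+ cDC and 2.99, 2.03 and 15.99 in CD14lo cDC (8.54-fold higher, log2 difference of 3.09 ± 0.23, adjusted p = 6.6e-09), and Blnk had 41.3, 49.6 and 45.2 in CD103+ cDC and 622, 508 and 416 in CD14lo cDC (5.87-fold lower, log2 difference of -2.55 ± 0.18, adjusted p = 4.6e-09). Clnk lay below the array median on all 3 CD14lo arrays, and Blnk on all 3 CD103+ arrays. The Src family divided as well. Yes1 (875, 802 and 841 in CD103+ cDC and 75.2, 92.7 and 95.4 in CD14lo cDC; 6.46-fold higher) and Src (1501, 805 and 1699 in CD103+ cDC and 434, 147 and 471 in CD14lo cDC; 3.600-fold higher) were favoured in CD103+ cDC, and Fgr was 4.29-fold lower, with 2405, 1292 and 1144 in CD103+ cDC and 6785, 6680.5 and 6679 in CD14lo cDC. Dok2, an adaptor that restrains Ras signalling, was 5.76-fold lower.

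Exchange factors of the Rasgrp family showed a like division. Rasgrp3 was 2.72-fold higher, with 1864, 2202 and 2416 in CD103+ cDC and 822, 866 and 612 in CD14lo cDC. Rasgrp1 was lower, with 75.1, 66.00 and 129.5 in CD103+ cDC and 1220.0, 994 and 998 in CD14lo cDC (8.11-fold lower, log2 difference of -3.02 ± 0.18, adjusted p = 5.2e-10), and Rasgrp2 had 3.12, 19.5 and 19.5 in CD103+ cDC and 261, 476 and 428 in CD14lo cDC (6.73-fold lower). The kinases Map4k5 (2.69-fold) and Map4k4 (2.19-fold) were higher. Over the Ras and MAP kinase list 12 of 64 rose and 19 fell, a balance that turned to 14 and 12 with median centring. The lower count was 12 without CD103+ replicate 3 or CD14lo replicate 2, 11 without CD14lo replicate 1 and 10 without CD14lo replicate 3.

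In the phosphoinositide 3-kinase and mTOR list 11 of 59 rose and 5 fell. Rragd, a Rag GTPase that brings mTOR complex 1 to lysosomes, had 1324, 778 and 1054 in CD103+ cDC and 127, 104 and 111 in CD14lo cDC and was 6.59-fold higher (log2 difference of 2.72 ± 0.21, adjusted p = 1.6e-08). Fnip2, a partner of folliculin at the Rag GTPases, was 2.31-fold higher and Pik3r1, the regulatory subunit of phosphoinositide 3-kinase, 2.17-fold higher. Ddit4 and Deptor, each an inhibitor of mTOR, were among the 5 that fell: Ddit4 had 2861, 1359.6 and 1732 in CD103+ cDC and 6609.7, 6035 and 7866 in CD14lo cDC (3.53-fold lower, log2 difference of -1.82 ± 0.32, adjusted p = 0.00025), and Deptor had 379, 440.3 and 393 in CD103+ cDC and 1175, 766 and 1053 in CD14lo cDC (2.28-fold lower). The higher count of this list was 7 without CD14lo replicate 1 and 6 without CD14lo replicate 3, and the lower count 3 without CD103+ replicate 1.

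In the calcium list 10 of 62 rose and 15 fell. Plce1 had 378, 255 and 323 in CD103+ cDC and 11.4, 19.00 and 10.2 in CD14lo cDC (5.76-fold higher, log2 difference of 2.53 ± 0.23, adjusted p = 1.3e-07). It lay below the array median on all 3 CD14lo arrays. Plcb4 was 4.48-fold higher, and both phospholipases release inositol trisphosphate and diacylglycerol. The protein kinase C genes Prkce (47.3, 40.9 and 20.2 in CD103+ cDC and 288, 254 and 509 in CD14lo cDC; 4.52-fold lower) and Prkcb (510.4, 572 and 442 in CD103+ cDC and 1803, 2076 and 1816 in CD14lo cDC; 3.499-fold lower) and the calcium pump Atp2a3 (3.72-fold lower) were favoured in CD14lo cDC.

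In the transforming growth factor beta list 4 of 34 rose and 11 fell. Itgb8, the integrin chain that activates latent transforming growth factor beta, had 547, 394 and 780.5 in CD103+ cDC and 61.5, 27.7 and 66.9 in CD14lo cDC and was 6.01-fold higher (log2 difference of 2.59 ± 0.26, adjusted p = 3.9e-07). Dab2, an endocytic adaptor that binds the receptors, had 591, 474 and 265 in CD103+ cDC and 5459, 4278 and 4858 in CD14lo cDC (10.3-fold lower, log2 difference of -3.37 ± 0.19, adjusted p = 3.6e-10). Zfyve9, which anchors Smad proteins at endosomes, was 3.67-fold lower and the co-receptor Eng 2.93-fold lower. Pmepa1, a target gene and feedback inhibitor of the pathway, was 1.67-fold higher, with 4552, 4289.7 and 4186 in CD103+ cDC and 2835, 2170.5 and 2764 in CD14lo cDC.

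Dkk3, a secreted relative of Wnt antagonists, showed the largest rise outside the subset markers. Its signals were 2257, 1676 and 1380.3 in CD103+ cDC and 4.78, 46.1 and 28.3 in CD14lo cDC, 24.00-fold higher (log2 difference of 4.58 ± 0.25, adjusted p = 2.5e-10), and it lay below the array median on all 3 CD14lo arrays. Wls, which carries Wnt proteins to the cell surface, had 40.8, 21.8 and 4.23 in CD103+ cDC and 373, 438 and 355 in CD14lo cDC and was 6.18-fold lower (log2 difference of -2.63 ± 0.20, adjusted p = 1.3e-08). The Wnt list as a whole had 7 of 35 higher and 2 lower; the higher count was 3 without CD103+ replicate 3 and 4 without CD14lo replicate 2 or 3, and the lower count 1 without CD103+ replicate 3.

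The Janus kinase and STAT list, which holds cytokine receptors as well as kinases and factors, counted 9 of 42 higher and 12 lower, which turned to 14 and 9 with median centring and to 13 and 10 without CD103+ replicate 2. Ifnlr1, the receptor chain for type III interferon, was 3.03-fold higher, with 382, 719.8 and 551 in CD103+ cDC and 195, 92.2 and 156 in CD14lo cDC. Il15ra, which presents interleukin 15 to other cells, had 5038, 5159.7 and 5172 in CD103+ cDC and 2268, 1333 and 1698 in CD14lo cDC (2.91-fold higher, log2 difference of 1.54 ± 0.18, adjusted p = 3.3e-06). Stat4, a factor downstream of interleukin 12, had 5264, 4765 and 4257 in CD103+ cDC and 1924, 1832 and 1808 in CD14lo cDC (2.52-fold higher, log2 difference of 1.33 ± 0.15, adjusted p = 2.5e-06). Il17ra, the interleukin 17 receptor, was lower, with 2000.1, 1346 and 718 in CD103+ cDC and 7622, 6900.3 and 7804 in CD14lo cDC (5.75-fold lower, log2 difference of -2.52 ± 0.24, adjusted p = 1.9e-07). Il18rap, an interleukin 18 receptor chain, was 3.32-fold lower, and Csf3r, the granulocyte colony-stimulating factor receptor and also a neutrophil marker, 4.92-fold lower.

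Among the named guidance molecules, CD103+ cDC held more of the semaphorins and CD14lo cDC more of 2 semaphorin receptors. The semaphorins Sema4f, with 1367, 1826 and 1597 in CD103+ cDC and 139.5, 145 and 83.02 in CD14lo cDC (9.62-fold higher, log2 difference of 3.27 ± 0.22, adjusted p = 2.2e-09), and Sema6d, with 2829.6, 1969 and 2379.8 in CD103+ cDC and 538, 397 and 383 in CD14lo cDC (4.99-fold), were higher. The receptors Plxnb2, with 471, 382 and 302 in CD103+ cDC and 2468, 2557 and 2787 in CD14lo cDC (6.17-fold lower, log2 difference of -2.63 ± 0.19, adjusted p = 4.8e-09), and Nrp2 (3.23-fold) were lower, as was the ephrin ligand Efnb2 (3.02-fold). Over the list, 4 of 23 rose and 8 fell.

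Over all signalling lists, 126 genes rose and 145 fell of 617, which turned to 145 and 123 with median centring. Without CD103+ replicates 1 and 3, the arrays of highest Gapdh ratio in that population, the counts were 77 and 109; the lone array left there is assumed to vary like the other groups.

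The promoters of the named signalling genes with the largest rise and the largest fall that have 1 entry in the RefSeq promoter table are shown to give the sequence context of a gene favoured in each population. They are 300 bases each, from 250 before to 50 after the start, on GRCm38.p6, written 5′ to 3′ on the strand of the gene. Capitals mark matches, on either strand, to an ETS motif (GAGGAAG), an AP-1 motif (TGANTCA), a C/EBP motif (TTGCNNAA), a ZEB-type E-box (CAGGTG) or a GC box (GGGCGG). Sema4f lies on the minus strand at chr6:82939720-82940019, and Adgre4 on the plus strand at chr17:55749734-55750033.
Sema4f: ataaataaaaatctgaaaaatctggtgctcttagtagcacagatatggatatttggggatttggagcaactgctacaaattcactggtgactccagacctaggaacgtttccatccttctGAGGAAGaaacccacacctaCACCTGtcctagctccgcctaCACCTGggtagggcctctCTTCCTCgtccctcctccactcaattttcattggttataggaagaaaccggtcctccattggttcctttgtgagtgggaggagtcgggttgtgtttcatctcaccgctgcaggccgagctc
Adgre4: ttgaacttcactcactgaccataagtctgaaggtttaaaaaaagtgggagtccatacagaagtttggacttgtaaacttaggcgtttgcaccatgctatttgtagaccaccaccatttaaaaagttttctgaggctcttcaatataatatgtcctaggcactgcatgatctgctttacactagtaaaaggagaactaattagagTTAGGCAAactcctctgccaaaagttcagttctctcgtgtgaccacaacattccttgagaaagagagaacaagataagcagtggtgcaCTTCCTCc
The Sema4f promoter held 2 ETS and 2 E-box matches, and that of Adgre4 1 ETS and 1 C/EBP match, with no overlap among them. A match is a description of letters only. The ETS letters were in 13.6% of all 32851 promoters in the table and in 13.9% of those of the genes tested. They were in 15.9% of 339 promoters of genes called higher by at least 2-fold and in 21.6% of 385 of those called lower. The E-box letters were in 23.9% of the higher and 19.5% of the lower promoters, against 17.1% of those of the genes tested.

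Transcription factor and chromatin genes together were lower in CD103+ cDC more often than higher, with 45 of 351 up and 82 down. Without CD103+ replicates 1 and 3 the counts were 21 and 49, and the lower counts of the ETS, Kruppel-like and Runt lists named next were 4, 5 and 7. Lower calls prevailed among nuclear receptors (8 of 28, against 1 higher), ETS factors (8 of 18, against 1), Kruppel-like, Sp and Egr factors (8 of 18, against 3), basic leucine zipper factors (12 of 44, against 3) and the Runt, GATA and Ikaros group (12 of 27, against 5). Over all genes tested 28.7% were called, 15.3% lower and 13.4% higher. In these lists the shares called were, in the same order, 32.1%, 50%, 61.1%, 34.1% and 63%. Those of nuclear receptors and leucine zipper factors lay nearest the share over all genes. These lists hold some subset markers, such as Batf3 and Klf4, which are counted in them but not named. Among these, the Kruppel-like lower count was 5 without CD14lo replicate 1, the leucine zipper higher count 6 without CD103+ replicate 2, and the Runt group's higher count 3 without CD14lo replicate 2 or 3.

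Among the nuclear receptors that fell were Pparg, Vdr and Nr1h3. Pparg, a fatty acid sensor, had 9.39, 27.3 and 8.39 in CD103+ cDC and 418, 344 and 322 in CD14lo cDC and was 6.35-fold lower (log2 difference of -2.67 ± 0.20, adjusted p = 6.9e-09); it lay below the array median on all 3 CD103+ arrays and is also an alveolar macrophage marker. Vdr, the vitamin D receptor, had 186, 140.3 and 102 in CD103+ cDC and 899.6, 655 and 983 in CD14lo cDC (4.67-fold lower, log2 difference of -2.22 ± 0.21, adjusted p = 2.2e-07). Nr1h3, the oxysterol receptor LXR alpha, had 104, 108 and 60.2 in CD103+ cDC and 426, 464 and 469 in CD14lo cDC (3.62-fold lower). The single member called higher, the coactivator Ncoa2 (1.56-fold), lost its call without CD103+ replicates 1 and 3.

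Cebpb, a factor of myeloid inflammatory responses, had 630.3, 383 and 392 in CD103+ cDC and 2997, 3787 and 3701 in CD14lo cDC and was 6.95-fold lower (log2 difference of -2.80 ± 0.17, adjusted p = 5.2e-10). The CREB family member Creb5 had 195, 123 and 109.6 in CD103+ cDC and 1179, 600.5 and 867 in CD14lo cDC (4.77-fold lower) and the AP-1 subunit Fosl2 2360.0, 1114 and 2465 in CD103+ cDC and 8018, 6506 and 9499 in CD14lo cDC (4.15-fold lower). Nfe2l1, a regulator of proteasome genes, was 1.98-fold higher. In the ETS family Ets2 was lower, with 720.2, 394 and 492 in CD103+ cDC and 2098, 1366 and 2540.3 in CD14lo cDC (3.49-fold), and the repressor Etv3 was the single member higher, with 17338, 16232 and 17282 in CD103+ cDC and 9446, 9679 and 11476 in CD14lo cDC (1.66-fold higher, log2 difference of 0.73 ± 0.12, adjusted p = 9.9e-05).

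Early response factors went different ways. Egr3 was 2.72-fold higher, with 1076, 2041 and 1797 in CD103+ cDC and 409.7, 571 and 709 in CD14lo cDC, and Egr2 1.75-fold lower, with 1611, 1684 and 1404 in CD103+ cDC and 2776, 3516 and 2170.3 in CD14lo cDC. Klf6 was 1.65-fold higher, while Klf9 (2.29-fold) and Klf13 (1.79-fold) were lower.

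Factors of haematopoietic progenitors and lymphocytes also parted. Myb, a progenitor factor, had 308, 334 and 463 in CD103+ cDC and 64.1, 82.6 and 64.3 in CD14lo cDC and was 3.44-fold higher (log2 difference of 1.78 ± 0.23, adjusted p = 9.7e-06). Ikzf4, an Ikaros family member, had 3682, 2804 and 2608 in CD103+ cDC and 1281, 802 and 620.1 in CD14lo cDC (3.34-fold higher, log2 difference of 1.74 ± 0.25, adjusted p = 3.9e-05), and the mRNA decay factor Zfp36l1 was 1.73-fold higher. Runx1 was lower, with 1402, 945 and 982 in CD103+ cDC and 3786, 3783 and 4025 in CD14lo cDC (3.42-fold lower, log2 difference of -1.78 ± 0.16, adjusted p = 7.2e-08). Bcl11a, a factor of lymphoid and dendritic cell development, had 380.2, 744 and 254 in CD103+ cDC and 1814, 1512 and 1746 in CD14lo cDC (3.69-fold lower), and the chromatin organizer Satb1 41.8, 72.3 and 44.8 in CD103+ cDC and 223, 388 and 462 in CD14lo cDC (3.86-fold lower).

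**Figure D3:**
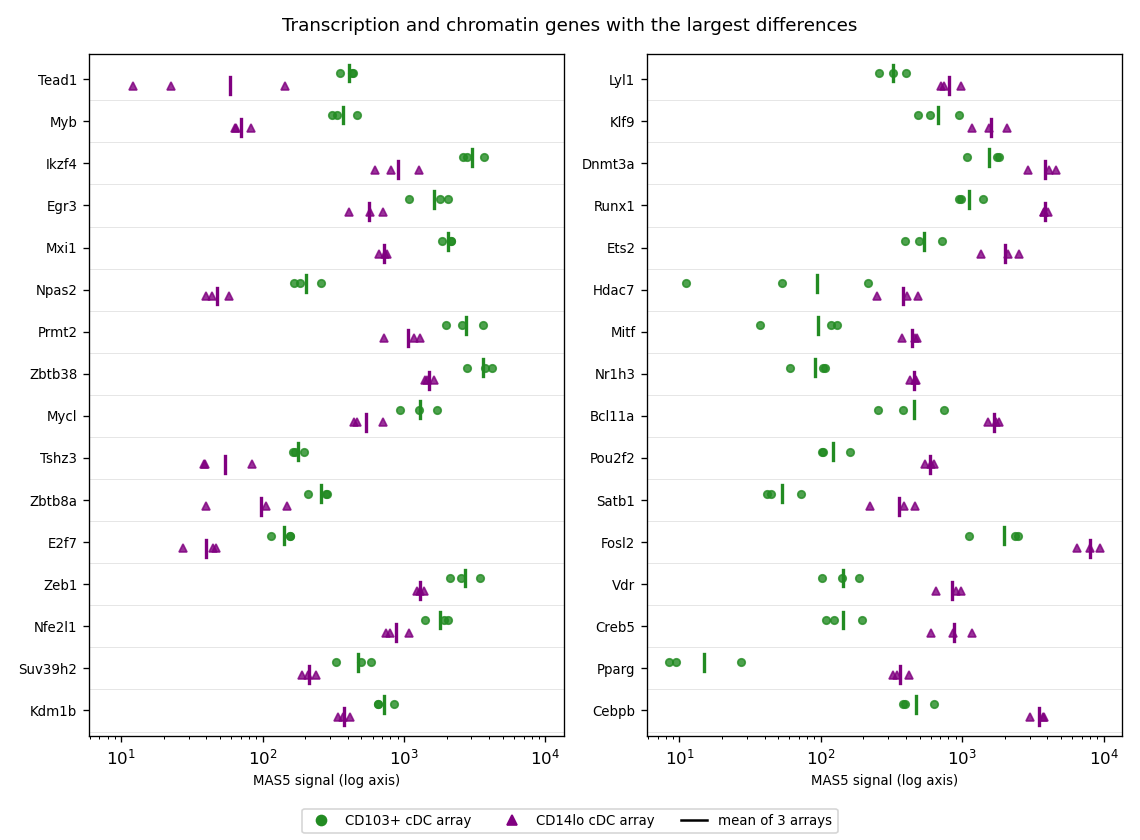
MAS5 signal (log axis) on each array for the 16 list-named transcription and chromatin genes of largest rise (left) and of largest fall (right) in CD103+ cDC, with CD103+ cDC arrays as green circles, CD14lo cDC arrays as purple triangles and bars at the means of 3 arrays. Cebpb lies at 383 to 630.3 in CD103+ cDC and at 2997 to 3787 in CD14lo cDC.

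In the basic helix-loop-helix list 6 of 37 rose and 5 fell, which was 6 and 8 when a gene's probe sets were averaged. Mxi1, an antagonist of Myc, was 2.71-fold higher, with 2135, 1851 and 2139 in CD103+ cDC and 670.0, 758 and 732 in CD14lo cDC. Npas2, a clock factor, was 2.59-fold higher. Mitf, a regulator of lysosomal genes, was lower, with 117, 130.0 and 37.4 in CD103+ cDC and 482, 373 and 461 in CD14lo cDC (3.52-fold lower, log2 difference of -1.82 ± 0.22, adjusted p = 4.9e-06), and Lyl1, a haematopoietic factor, 2.29-fold lower.

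Repressors of the BTB zinc finger list had 5 of 47 higher and 6 lower, which was 6 and 5 without CD103+ replicate 1; the higher count was 3 without CD103+ replicate 3, CD14lo replicate 2 or CD14lo replicate 3. Zbtb38, which binds methylated DNA, was 2.32-fold higher, with 2802, 4216 and 3756 in CD103+ cDC and 1454, 1642 and 1400.2 in CD14lo cDC, and Hivep2 1.803-fold lower. In the homeodomain, POU, forkhead and SOX list 8 of 46 rose and 10 fell, turning to 10 and 8 with median centring. Its higher count was 5 without CD103+ replicate 1 or 2, 3 without CD14lo replicate 1 and 4 without CD14lo replicate 3, and its lower count 6 without CD103+ replicate 3. Tead1, the partner of YAP in the Hippo pathway, was 4.76-fold higher, with 432, 354 and 432 in CD103+ cDC and 22.5, 143 and 12.01 in CD14lo cDC; the CD14lo values were uneven but all below those of CD103+ cDC. E2f7, a repressor of the cell cycle, was 2.14-fold higher. Pou2f2, known from B cells, was lower, with 161, 104 and 102 in CD103+ cDC and 545, 604 and 632 in CD14lo cDC (3.78-fold lower, log2 difference of -1.92 ± 0.24, adjusted p = 5.7e-06), and Foxo3 was 1.91-fold lower. Chromatin enzymes had 13 of 86 higher and 13 lower, with 7 higher without CD103+ replicate 3 and 8 without CD14lo replicate 3. The DNA methyltransferase Dnmt3a was lower, with 1771, 1808 and 1078 in CD103+ cDC and 4631, 2936 and 4082 in CD14lo cDC (2.47-fold).

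The promoters of the named transcription genes of largest rise and largest fall in the fit with 1 entry are given in the same way, Myb on the minus strand at chr10:21160935-21161234 and Cebpb on the plus strand at chr2:167688665-167688964.
Myb: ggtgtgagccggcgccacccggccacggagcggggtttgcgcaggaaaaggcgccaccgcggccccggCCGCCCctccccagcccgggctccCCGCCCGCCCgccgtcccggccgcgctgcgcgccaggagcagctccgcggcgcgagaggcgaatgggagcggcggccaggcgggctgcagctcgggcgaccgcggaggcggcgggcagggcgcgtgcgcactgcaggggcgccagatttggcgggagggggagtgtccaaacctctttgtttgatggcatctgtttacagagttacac
Cebpb: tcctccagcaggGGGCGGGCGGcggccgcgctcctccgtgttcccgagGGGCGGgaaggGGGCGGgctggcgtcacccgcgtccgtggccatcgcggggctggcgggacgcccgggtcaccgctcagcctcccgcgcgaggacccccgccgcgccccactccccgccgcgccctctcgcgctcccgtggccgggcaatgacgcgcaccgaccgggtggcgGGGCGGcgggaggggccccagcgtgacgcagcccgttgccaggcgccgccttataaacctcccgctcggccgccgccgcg
The Myb promoter held 3 GC box matches and that of Cebpb 5, each set with a pair that overlaps, and neither held a match to the other motifs. GC box letters were in 35.7% of all promoters in the table, in 66.1% of those of the genes tested, and in 60.8% and 53.8% of those higher and lower by at least 2-fold.

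Metabolic genes had 63 of 483 higher and 106 lower. Without CD103+ replicates 1 and 3 the counts were 35 and 66. The list with the most falls was that of glycan synthesis. Of the lipid lists, fatty acid uptake and oxidation had 23.9% called and sterol and fatty acid synthesis 25.6%. Both lay below the 28.7% of all genes tested, while phospholipid and sphingolipid enzymes had 43.8%.

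CD14lo cDC held more message for a glucose transporter and for glycogen breakdown. Slc2a3, a high-affinity glucose transporter, had 44.6, 238 and 196 in CD103+ cDC and 1508, 1607 and 1364 in CD14lo cDC and was 8.18-fold lower (log2 difference of -3.03 ± 0.31, adjusted p = 4.8e-07). Pygl, which releases glucose from glycogen, had 74.8, 72.8 and 62.8 in CD103+ cDC and 509, 832 and 542 in CD14lo cDC (5.53-fold lower, log2 difference of -2.47 ± 0.20, adjusted p = 2.9e-08), and Gyg, which primes glycogen, was 1.93-fold higher. Slc16a7, a monocarboxylate transporter, was 3.602-fold lower. Pfkfb3, which makes an activator of glycolysis, was higher, with 4030.2, 4986 and 6473 in CD103+ cDC and 2813, 2611 and 2955 in CD14lo cDC (1.802-fold). The hexosamine gene Gfpt1 (1.87-fold) and the salvage kinase Nagk (2.01-fold) were higher. The glycolysis list had 4 of 32 higher and 9 lower, with 2 higher without CD103+ replicate 1 or 3 or CD14lo replicate 3. The pentose phosphate, glycogen and hexosamine list had 5 of 29 higher and 5 lower, with 3 lower without CD103+ replicate 2 or CD14lo replicate 2 or 3.

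In the tricarboxylic acid cycle list 5 of 41 rose and 10 fell, which turned to 7 and 6 with median centring. Fh1, the fumarate hydratase, had 1459.9, 1008 and 1039.7 in CD103+ cDC and 3072, 3200.3 and 2777 in CD14lo cDC and was 2.54-fold lower (log2 difference of -1.35 ± 0.15, adjusted p = 1.6e-06). Pdha1, a subunit of pyruvate dehydrogenase, was 2.02-fold lower. The higher count of this list was 3 without CD103+ replicate 3 or CD14lo replicate 1 or 3, and the lower count 6 without CD103+ replicate 3 or CD14lo replicate 1.

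Named genes of fatty acid uptake and activation went both ways. Cd36, a scavenger receptor that takes up long-chain fatty acids, had 6996, 7351 and 8284 in CD103+ cDC and 972, 1118 and 679.6 in CD14lo cDC and was 7.93-fold higher (log2 difference of 2.99 ± 0.18, adjusted p = 5.4e-10). Slc27a3, of the family that activates fatty acids on entry, had 1746, 1432 and 1330.0 in CD103+ cDC and 461, 357 and 287 in CD14lo cDC (3.74-fold higher). The fatty acid binding protein Fabp4 was lower, with 364, 318 and 398 in CD103+ cDC and 2696, 1959.8 and 1538 in CD14lo cDC (5.05-fold lower, log2 difference of -2.34 ± 0.24, adjusted p = 5.6e-07), and the acetate-activating enzyme Acss2 3.25-fold lower. The list counted 4 of 46 higher and 7 lower. Scd1, a desaturase, was 2.69-fold higher, with 765, 924 and 741 in CD103+ cDC and 290.5, 356 and 182 in CD14lo cDC, the sterol pathway gene Idi1 1.75-fold higher and the lipid droplet coat gene Plin2 1.62-fold higher, while Lpl, the lipoprotein lipase, was 2.88-fold lower, with 1534, 689 and 588 in CD103+ cDC and 3587, 2562 and 1832 in CD14lo cDC. The sterol and fatty acid synthesis list had 6 of 43 higher and 5 lower, with 3 higher without CD103+ replicate 1 or CD14lo replicate 3 and 3 lower without CD14lo replicate 1.

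Phospholipid enzymes had 12 of 64 higher and 16 lower. Plpp1, a phosphatase that acts on lysophosphatidic and phosphatidic acid, had 1978, 1923 and 2093 in CD103+ cDC and 141, 105 and 118 in CD14lo cDC and was 11.97-fold higher (log2 difference of 3.58 ± 0.29, adjusted p = 2.6e-08). The acyltransferases Agpat3 and Agpat2 went opposite ways: Agpat3 had 1236, 1427 and 1140.0 in CD103+ cDC and 229.6, 221 and 238 in CD14lo cDC (4.69-fold higher), and Agpat2 had 112, 146 and 109 in CD103+ cDC and 389.5, 459.7 and 403 in CD14lo cDC (2.72-fold lower). The phospholipase Plaat3 was 4.46-fold higher. Pla2g7, which inactivates platelet-activating factor, was 3.398-fold lower, and Pld3, an endolysosomal nuclease, 4.66-fold lower.

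Nucleotide genes had 4 of 58 higher and 10 lower. Rrm2, the ribonucleotide reductase subunit needed for DNA synthesis, had 1916, 3647 and 2632 in CD103+ cDC and 749, 1109 and 655 in CD14lo cDC (3.102-fold higher). Adenosine is handled by Adk, which phosphorylates it, and Ada, which deaminates it: Adk was 2.45-fold higher and Ada 2.404-fold lower. Xdh, which makes uric acid, was lower, with 181, 83.1 and 160.5 in CD103+ cDC and 707, 1024 and 875 in CD14lo cDC (4.88-fold lower, log2 difference of -2.29 ± 0.22, adjusted p = 2.5e-07). The folate enzyme Mthfd2 was 1.87-fold higher.

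Amino acid genes had 9 of 51 higher and 9 lower. The neutral amino acid transporter Slc1a4 was higher, with 1272, 1066 and 1644 in CD103+ cDC and 397, 341 and 234 in CD14lo cDC (3.69-fold higher, log2 difference of 1.88 ± 0.21, adjusted p = 1.6e-06), as was Odc1, the first enzyme of polyamine synthesis, with 14110.2, 13117 and 13142 in CD103+ cDC and 6258, 6949 and 6716 in CD14lo cDC (2.02-fold). The lysosomal amino acid exporter Slc36a1 (4.02-fold), Slc43a2 (2.85-fold) and the cystine importer Slc7a11 (2.57-fold) were lower. Cystine feeds glutathione, and Gclc, the rate-limiting enzyme of glutathione synthesis, was higher, with 3944, 2880.1 and 4189.6 in CD103+ cDC and 902, 894 and 906 in CD14lo cDC (3.87-fold higher, log2 difference of 1.95 ± 0.19, adjusted p = 2.2e-07). Txn1, thioredoxin, was 1.81-fold higher. Blvrb, biliverdin reductase B, was 2.34-fold lower, and Slc11a1, a metal transporter of phagosomes, 1.96-fold lower. The iron, haem and redox list had 5 of 56 higher and 16 lower; the higher count was 3 without CD14lo replicate 1, and the lower count 7 without CD103+ replicate 3 and 10 without CD14lo replicate 1 or 3.

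Enzymes that build glycans were lower in 19 of 63 cases and higher in 9, and 14 of the lower ones were at least 2-fold lower, a direction that held with every array left out (18 to 20 lower). Galnt6, which starts O-linked glycans, had 60.9, 46.8 and 48.03 in CD103+ cDC and 1364, 804 and 1114 in CD14lo cDC and was 11.02-fold lower (log2 difference of -3.46 ± 0.24, adjusted p = 3.5e-09). Its relative Galnt7 went the other way, with 3069, 2186 and 2793 in CD103+ cDC and 1105, 970.4 and 1098 in CD14lo cDC (2.45-fold higher). St8sia1, the sialyltransferase of GD3 ganglioside, had 173, 263 and 180.4 in CD103+ cDC and 1529, 1968 and 2341 in CD14lo cDC (7.797-fold lower, log2 difference of -2.96 ± 0.21, adjusted p = 4.4e-09). Sulf2, which trims sulphate from heparan sulphate, had 881, 937 and 1018 in CD103+ cDC and 5398, 6504 and 5028 in CD14lo cDC (5.69-fold lower, log2 difference of -2.51 ± 0.13, adjusted p = 1e-10).

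**Figure D4:**
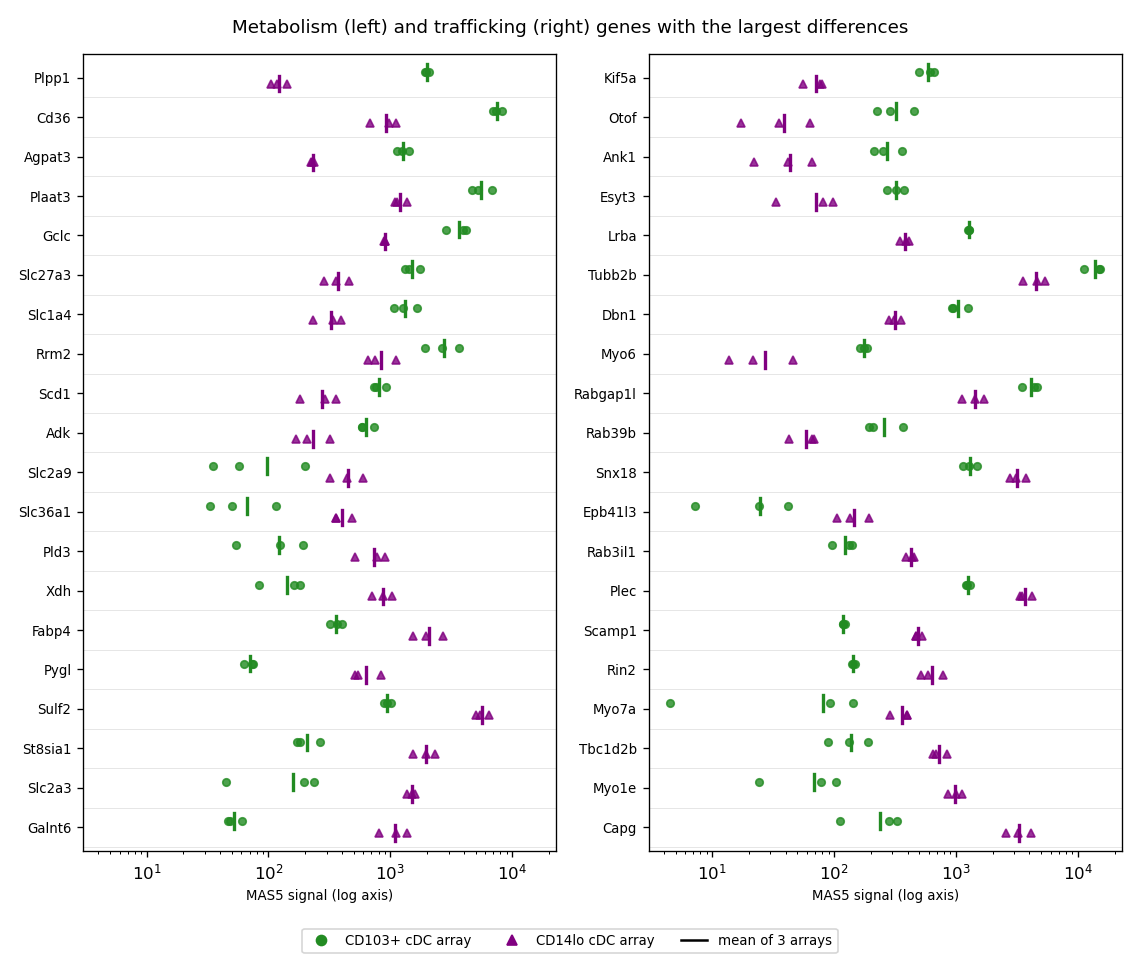
MAS5 signal (log axis) on each array for list-named metabolism genes (left) and trafficking genes (right), the 10 of largest rise and the 10 of largest fall in CD103+ cDC of each theme, with CD103+ cDC arrays as green circles, CD14lo cDC arrays as purple triangles and bars at the means of 3 arrays. Cd36 lies at 6996 to 8284 in CD103+ cDC and 679.6 to 1118 in CD14lo cDC, and Capg at 112 to 327 and 2553 to 4128.

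In trafficking 30.0% of genes were called, near the 28.7% of all genes tested, and 8.32% against 10.8% differed by at least 2-fold. More were called higher than lower, 119 of 649 against 76. Without CD103+ replicates 1 and 3 this was 52 and 38. The most rises were among Rab GTPases, actin regulators and motors. With a 2-fold requirement as well, 4 motor genes were higher and 5 lower. The SNARE and fusion factor list had 29.2% called, near the share over all genes.

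Rab GTPases and their regulators had 26 of 93 higher and 11 lower (20 to 25 and 8 to 10 with single arrays left out). Rab39, a late endosomal GTPase, had 369, 310.4 and 348 in CD103+ cDC and 87.7, 113 and 83.8 in CD14lo cDC (2.71-fold higher), and its relative Rab39b 370.0, 209 and 194 in CD103+ cDC and 68.4, 42.6 and 66.4 in CD14lo cDC (2.75-fold higher). Rabgap1l, which turns Rab proteins off, was 2.88-fold higher. Tbc1d2b, which also turns Rab proteins off, was lower, with 89.8, 191 and 132 in CD103+ cDC and 679, 836 and 644 in CD14lo cDC (4.18-fold lower, log2 difference of -2.06 ± 0.21, adjusted p = 6e-07), and the Rab5 exchange factor Rin2 3.48-fold lower. The list also holds the subset marker Rab7b.

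SNAREs and fusion factors had 14 of 65 higher and 5 lower, and 6 and 3 without CD103+ replicates 1 and 3. Otof, a calcium sensor of vesicle release known from hair cells, had 224, 454 and 288 in CD103+ cDC and 17.1, 62.8 and 35.4 in CD14lo cDC and was 4.17-fold higher (log2 difference of 2.06 ± 0.26, adjusted p = 8.7e-06). Esyt3, a lipid transfer tether, was 3.15-fold higher. The secretory carrier Scamp1 had 118, 117 and 122 in CD103+ cDC and 524, 473 and 467 in CD14lo cDC (3.17-fold lower, log2 difference of -1.67 ± 0.16, adjusted p = 1.8e-07), and Nsf, which takes spent SNARE complexes apart, was 1.94-fold lower, with 1028, 1297 and 1053 in CD103+ cDC and 2537, 2004 and 2150.3 in CD14lo cDC.

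Among endocytic genes 12 of 84 rose and 10 fell. The Arf regulators Iqsec1 (2258, 2484 and 3179.7 in CD103+ cDC and 1119, 906 and 978 in CD14lo cDC; 2.54-fold) and Asap2 (2.31-fold) were higher, and Pacsin1, which bends membranes and is also a plasmacytoid dendritic cell marker, was 2.51-fold higher. The clathrin partner Necap1 (1.95-fold) and the raft protein Flot1 (1.76-fold) were lower. Sorting nexin, retromer and ESCRT genes had 15 of 106 higher and 11 lower, which became 6 and 9 without CD103+ replicates 1 and 3. Lrba, which keeps CTLA-4 and other cargo from lysosomes, had 1242, 1289 and 1275 in CD103+ cDC and 386, 348 and 409.8 in CD14lo cDC (3.06-fold higher, log2 difference of 1.62 ± 0.19, adjusted p = 3.9e-06). Washc1, a driver of actin on endosomes, was 1.999-fold higher and Hps4, needed for lysosome-related organelles, 2.28-fold higher. Snx18 was lower, with 1272, 1486 and 1146 in CD103+ cDC and 3086, 2748 and 3739 in CD14lo cDC (2.39-fold).

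Autophagy genes had 4 of 48 higher and 6 lower, 20.8% called against the 28.7% of all genes tested; the higher count was 1 without CD103+ replicate 1 or CD14lo replicate 1 and 2 without CD14lo replicate 3, and the counts were 5 and 4 when a gene's probe sets were averaged. Dram1 was 2.15-fold lower, with 629, 493 and 861 in CD103+ cDC and 1434, 1445 and 1458 in CD14lo cDC, and Dram2 1.96-fold lower. In the endoplasmic reticulum to Golgi list 2 of 103 rose and 15 fell, 16.5% called against the 28.7% of all genes tested. This balance turned to 7 and 6 with median centring. The lower count was 4 without CD103+ replicate 3, 6 without CD14lo replicate 1 and 8 without CD14lo replicate 3, and the higher count 1 without CD103+ replicate 1 and 5 without CD103+ replicate 2. Sec24d, a cargo adaptor of the COPII coat, stood apart as higher, with 1015, 893 and 962 in CD103+ cDC and 280.5, 468 and 332 in CD14lo cDC (2.49-fold higher, log2 difference of 1.32 ± 0.18, adjusted p = 1.6e-05).

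Motor genes had 16 of 63 higher and 9 lower; the higher count was 10 without CD103+ replicate 1, and the counts were 5 and 6 without CD103+ replicates 1 and 3. Kif5a, a kinesin known from axons, had 617, 661 and 495 in CD103+ cDC and 76.5, 79.5 and 55.7 in CD14lo cDC and was 5.31-fold higher (log2 difference of 2.41 ± 0.30, adjusted p = 5.5e-06). Myo6, the myosin that moves towards the minus end of actin filaments, was 2.96-fold higher, with 177, 185 and 164 in CD103+ cDC and 46.1, 13.8 and 21.8 in CD14lo cDC. Dynll2, a dynein light chain, was 2.296-fold higher. Myo1e, a membrane-bound myosin of endocytic and phagocytic sites, was lower, with 104, 77.9 and 24.2 in CD103+ cDC and 1109.6, 852 and 995 in CD14lo cDC (9.07-fold lower, log2 difference of -3.18 ± 0.22, adjusted p = 2.8e-09), and Myo7a was 3.53-fold lower.

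Of 87 actin regulators and cytoskeletal linkers 30 rose and 9 fell, the most rises of any trafficking list; with single arrays left out 22 to 30 rose, and without CD103+ replicates 1 and 3, 11 rose and 3 fell. Tubb2b, a beta-tubulin, had 11290.5, 14987 and 15316 in CD103+ cDC and 4649, 5357 and 3569.9 in CD14lo cDC (3.05-fold higher, log2 difference of 1.61 ± 0.17, adjusted p = 9.7e-07), and the actin-binding protein Dbn1 923, 1244 and 945 in CD103+ cDC and 284, 307 and 351 in CD14lo cDC (2.97-fold higher). Ank1, an ankyrin that links membranes to spectrin, was 3.47-fold higher. Capg, a capping protein of macrophage actin filaments, had 327, 281 and 112 in CD103+ cDC and 4128, 2553 and 3204 in CD14lo cDC and was 12.1-fold lower (log2 difference of -3.59 ± 0.24, adjusted p = 2.5e-09). Plec, which joins intermediate filaments to other structures, was 2.85-fold lower, with 1218, 1232 and 1299.7 in CD103+ cDC and 3334, 4184 and 3477 in CD14lo cDC.

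Outside the lists and the subset markers, the genes of largest rise held several membrane proteins. Laptm4b, a lysosomal membrane protein, had 18542, 14379 and 18320.3 in CD103+ cDC and 1642, 1387 and 905 in CD14lo cDC (12.8-fold higher, log2 difference of 3.68 ± 0.24, adjusted p = 1.4e-09), and Tm4sf5, of the tetraspanin-like family, 7309, 5226 and 5688 in CD103+ cDC and 536, 369.7 and 379 in CD14lo cDC (12.8-fold higher). Mpzl2, an adhesion molecule, had 1345, 1403 and 1619.6 in CD103+ cDC and 56.9, 73.8 and 57.7 in CD14lo cDC (13.3-fold higher). Zdhhc2, which attaches palmitate to proteins, had 961, 762 and 879 in CD103+ cDC and 29.5, 20.1 and 20.9 in CD14lo cDC (12.4-fold higher). Ndrg2 was 13.7-fold, Mab21l3 11.6-fold and the skin protease Asprv1 11.5-fold higher.

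The genes of largest fall were led by Emb, an adhesion partner of monocarboxylate transporters, with 59.2, 41.7 and 30.1 in CD103+ cDC and 1821, 2145 and 2397 in CD14lo cDC (23.2-fold lower, log2 difference of -4.54 ± 0.18, adjusted p = 3.4e-12). Emilin2, a matrix glycoprotein, had 101, 64.7 and 105 in CD103+ cDC and 2414, 3313 and 3109 in CD14lo cDC (21.4-fold lower, log2 difference of -4.42 ± 0.18, adjusted p = 7.1e-12). Ctsa, a lysosomal carboxypeptidase that protects other lysosomal enzymes, had 371, 289.6 and 162 in CD103+ cDC and 6264, 5134 and 6458 in CD14lo cDC (19.1-fold lower, log2 difference of -4.26 ± 0.19, adjusted p = 1.8e-11). Cell surface receptors followed: Cd300ld was 21.04-fold, Siglece, a sialic acid receptor, 17.1-fold and Klra17 16.9-fold lower. Mefv, the gene of pyrin, an inflammasome sensor, had 55.3, 93.5 and 98.8 in CD103+ cDC and 1761, 1959.5 and 2184 in CD14lo cDC (15.3-fold lower), and the secreted protease gene Htra3 was 15.5-fold lower.

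**Figure D5:**
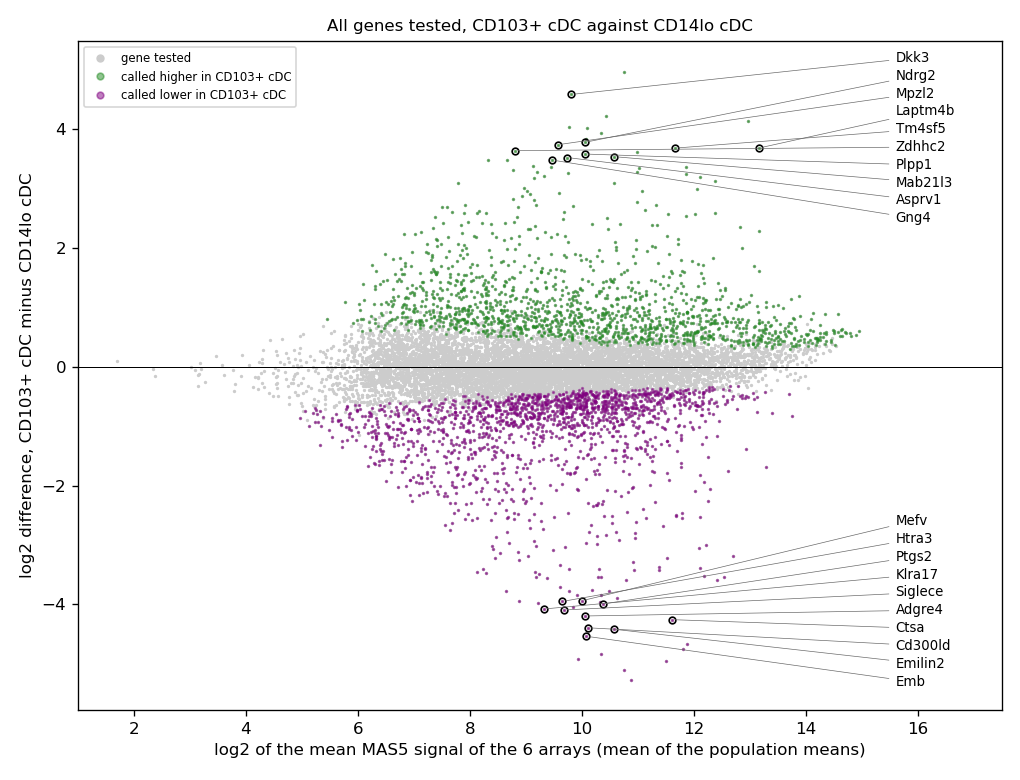
Log2 difference (CD103+ cDC minus CD14lo cDC) of each of 10929 genes tested against the log2 of the mean signal of the 6 arrays, with called genes in green (1466 higher) and purple (1675 lower). The 20 named genes of largest rise and fall outside the subset markers are circled, from Dkk3 at 4.58 to Emb at -4.54.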

How the data were processed

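RNA from sorted lung dendritic cells (50 ng a sample, amplified and biotin labelled, per the labels' protocols) was hybridised to Affymetrix mouse arrays, 3 for each of 4 populations. What the authors deposited is an intensity per probe set on a linear scale, made with MAS5 per the submitters' processing notes; every array had a 2% trimmed mean of 500.003. Neither the version of MAS5 nor detection calls are among the sources used here. The arrays were used as scaled, and all 12 were kept.

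Of 45101 probe sets, 64 controls were dropped, and those brighter than the median of their array on at least 3 of 12 arrays were kept, 25138 in all. Symbols came from the platform annotation (34945 probe sets with 1 symbol, 932 with several, 9160 with none), and only probe sets with 1 symbol were used. The brightest kept probe set stood for its gene, which was a choice among several for 5645 of 10929 genes. Of 261 named genes, 5 had another kept probe set of opposite sign, of which 0 were called the opposite way. A list gene not named in the probe annotation used here has no value.

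In R 4.3.3, limma 3.58.1 (lmFit, then eBayes with trend) fitted a mean for each population over the 12 arrays, on log2 of the signal plus 50.0003, with 8 residual degrees of freedom, two-sided. Gene lists are given as counts, without a set test. The number of arrays limits the precision. On simulated data for this comparison, with 200 of 10929 genes changed, the fit found 69% of the 2-fold changes and 97% of the 4-fold ones, 14 of 180 calls were false, and unchanged data gave 0 calls.

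The members and lists were chosen with earlier results of these data known. The rule for naming genes took the sort and subset markers, the 10 largest rises and 10 largest falls outside the subset marker lists, and up to 3 in each direction from each of 41 lists, subset markers left out. Apart from the markers, all were called genes whose arrays did not overlap. Promoters came from RefSeq (GRCm38.p6), where 152 named genes have 1 entry. Figures were drawn with matplotlib 3.10.9.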

Additional observations from a re-analysis of the deposited data

How the results depend on the processing

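Of 261 named genes, 208 kept their direction and call in each of 18 refits in which they were tested: quantile normalization, median centring, pseudocounts of 5% and 20% of the trimmed mean in place of 10%, no filter on low signals, a filter at the 75th percentile (which left 48 of the named genes untested), averaged probe sets, the 6 arrays alone, no intensity trend, a replicate block, single arrays left out and arrays of high Gapdh ratio left out. Of the 261, 199 differed by at least 2-fold. No named gene reversed in these refits. Apart from the markers, these genes were chosen as called and without overlap, so part of this stability follows from the choice. Of all genes called higher and lower, 1338 and 1497 were called the same way after quantile normalization. Without CD14lo replicate 3, 1123 and 1322 were. The counts of called genes, 1466 higher and 1675 lower, were 546 and 635 with a 2-fold requirement. Without CD103+ cDC replicates 1 and 3 they were 774 and 959, a setting chosen after seeing the data in which fewer arrays were fitted. With single arrays left out they ran from 1149 to 1451 higher and from 1363 to 1690 lower. The labels do not say whether replicate numbers pair the samples. Deviations of same-numbered arrays correlated at 0.12, -0.10 and 0.00, and those of differently numbered arrays at -0.215 to 0.203. With the number as a block the counts were 1516 and 1716. Signals below about the array median are near the background of these arrays, so differences among dim genes are least certain.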

Other observations

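The 6 arrays of monocyte-derived cells entered no comparison here. Their levels are given beside those of the cDC for a few genes picked after the values were seen, as mean signal ± SD of 3 arrays, with no test. Adcy6, the adenylyl cyclase, had 37.5 ± 8.62 in Ly6Chi moDC, 1930.3 ± 376 in CD14hi moDC, 2254 ± 620.3 in CD14lo cDC and 8183 ± 2468 in CD103+ cDC. Tubb2b, the beta-tubulin, had 594 ± 66.1 in Ly6Chi moDC, 4638 ± 838 in CD14hi moDC, 4525 ± 900.1 in CD14lo cDC and 13865 ± 2235 in CD103+ cDC. For Stat4 the values were 196 ± 44.4 in Ly6Chi moDC, 1253 ± 42.5 in CD14hi moDC, 1855 ± 61.2 in CD14lo cDC and 4762 ± 504 in CD103+ cDC. In these genes Ly6Chi moDC had the lowest mean and CD103+ cDC the highest.

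Some genes placed the populations in other ways. Cd36, the fatty acid receptor, had 990.1 ± 244 in Ly6Chi moDC, 7408 ± 472 in CD14hi moDC, 923 ± 223 in CD14lo cDC and 7544 ± 665 in CD103+ cDC, so that CD14hi moDC lay near CD103+ cDC. Fh1, the fumarate hydratase, had 1486 ± 45.8 in Ly6Chi moDC, 1359 ± 91.6 in CD14hi moDC, 3017 ± 217 in CD14lo cDC and 1169 ± 252 in CD103+ cDC, with CD14lo cDC above the rest. Klra17 had 79.5 ± 8.55 in Ly6Chi moDC, 125 ± 34.6 in CD14hi moDC, 1245 ± 230.0 in CD14lo cDC and 29.3 ± 28.5 in CD103+ cDC, and St8sia1, the GD3 synthase, 132 ± 33.8 in Ly6Chi moDC, 595 ± 102 in CD14hi moDC, 1946 ± 406 in CD14lo cDC and 205 ± 50.0 in CD103+ cDC; in each CD14lo cDC had the highest mean. Met, the hepatocyte growth factor receptor, had 1102 ± 212 in Ly6Chi moDC, 278 ± 65.2 in CD14hi moDC, 462 ± 91.1 in CD14lo cDC and 1091 ± 301 in CD103+ cDC, with the means of CD103+ cDC and Ly6Chi moDC above the other populations. Lpl, the lipoprotein lipase, had 8604 ± 471 in Ly6Chi moDC, 11961 ± 1396 in CD14hi moDC, 2660.4 ± 881 in CD14lo cDC and 937 ± 519.6 in CD103+ cDC.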
